A study of Chlorella sorokiniana with 6 samples.

Results

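The green alga *Chlorella sorokiniana* had 206 of its 18310 predicted coding transcripts placed among translation factors and ribosome biogenesis. They are the transcripts of the protein synthesis class of MapMan, a scheme that sorts plant genes into functional bins, after the structural proteins of the organellar and the cytosolic ribosome were left out. Of these members, 111 belonged to ribosome biogenesis, 52 to initiation, 27 to elongation, 6 to release and 10 to smaller bins, here called other members. The bins are wider than their names: the elongation bin also held g6555, annotated as the transcription factor TFIIS, and g10416, annotated as the alpha subunit of the nascent polypeptide-associated complex. A description was present for 190 members, and 182 of these descriptions held a match to a *Chlamydomonas* protein. The other 16 carried no description in the copy of the table used here and are known by their bin alone.

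The cultures compared were normal, at 10 µmol photons of light without glucose, and mixotrophic, at 100 µmol photons with 2% glucose, both in Bold's Basal Medium under continuous light. Light and glucose were changed together, so their effects cannot be told apart. Each condition had 3 libraries, numbered 1 to 3, which hold RNA of whole cultures, so that a change in the makeup of the culture cannot be told apart from one per cell. The strain label runs from NIES-2168 to NIES-2173, with another number for each library, while the study's methods name a single strain. The main comparison took replicates 2 and 3 of each condition, which are the libraries in the study's own expression tables, and values over all 6 libraries stand beside it. That choice was also made with earlier results of these data known, in which normal replicate 1 stood apart.

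Library totals ran from 2535461 to 4444858 counts. Normal replicate 1 stood apart, with a root mean square difference per transcript of 1.40 and 1.29 on the log2 scale from the other normal libraries, against 0.361 between those and 0.984 to 1.01 between the conditions among the 4 libraries. Mixotrophic replicate 1 differed by 0.905 and 1.02 from the other mixotrophic libraries, against 0.287 between those. edgeR put the coefficient of variation between replicates at 4.64% over the 4 libraries and 35.5% over all 6. Adjusted p-values over the 4 therefore measure a small spread, that between these libraries alone. In replicate 1 of both conditions 892 transcripts were at least 2-fold lower than in every other library, and 10 members were among them. With those transcripts set aside, normal replicate 1 was still 0.983 and 0.954 from the other normal libraries. Mixotrophic replicate 1 was then 0.270 and 0.299 from the other mixotrophic libraries. Levels are in CPM, the counts of a transcript relative to the library total after TMM scaling, and are not corrected for transcript length, so they compare libraries and not genes. A log2 fold change is mixotrophic over normal and is followed by its SE, the standard error, where 1 is given, and a transcript is called higher (rose) or lower (fell) at an edgeR adjusted p under 0.05.

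Ribosomes are built in the nucleolus, where a long precursor RNA is cut, folded and chemically modified by small nucleolar ribonucleoproteins (snoRNPs), methyltransferases and helicases, while GTPases and ATPases drive assembly and export. Initiation factors then bring the small subunit, the initiator transfer RNA and a messenger RNA together, elongation factors deliver aminoacyl-transfer RNAs and move the ribosome along, and release factors free the finished chain. Algae run this machinery in the cytosol, the chloroplast and the mitochondrion, and the organelles use factors of bacterial type that are mostly encoded in the nucleus.

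Members rose more often than they fell under mixotrophic conditions. Over the 4 libraries 173 members had enough counts to be tested and 25 had no count in any library. Of those tested, 61 (35.3%) were higher and 20 (11.6%) lower, whereas of all 12389 transcripts tested 28.6% were higher and 29.0% lower. The median log2 fold change was 0.25 for the members and -0.02 for all transcripts. When a fold change past 2-fold was also asked for, 17 members (9.83%) were higher and 11 (6.36%) lower, both smaller shares than the 11.7% and 12.0% of all transcripts. Over all 6 libraries 46 members (26.9%) were higher and 13 (7.60%) lower of 171 tested, with backgrounds of 13.3% and 15.2%. Each of these 59 was also called in the same direction over the 4. With the replicate number as a block over all 6, the counts were 34 (19.9%) and 8 (4.68%), with backgrounds of 9.97% and 10.5%. Without normal replicate 1 the other 5 libraries gave 64 (36.8%) and 23 (13.2%), with backgrounds of 27.8% and 28.2%. Every mixotrophic library lay above every normal one for 65 of the 171 members and below for 25, against backgrounds of 24.4% and 24.2%. Members together took 3.32% to 3.64% of the counts in normal and 4.03% to 4.18% in mixotrophic libraries, without overlap between the conditions.

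**Figure D1:**
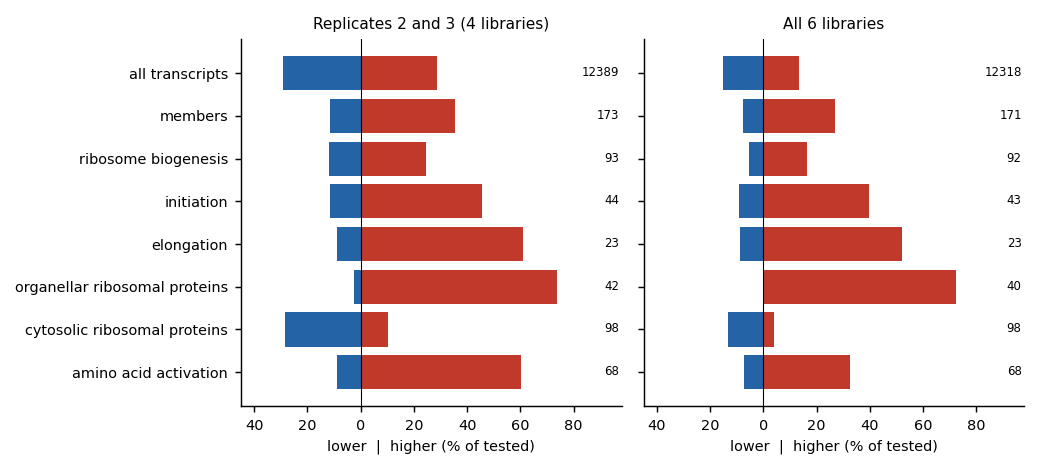
Share of tested transcripts called higher (red, to the right) or lower (blue, to the left) in mixotrophic cultures, in percent, for replicates 2 and 3 (left panel) and all 6 libraries (right panel), with the number tested at the right edge. Elongation and initiation members were called higher in 60.9% and 45.5% of cases over the 4 libraries, against 28.6% of all transcripts, while ribosome biogenesis was at 24.7%.

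Most of the higher calls relative to the number tested were in initiation, elongation and release. In ribosome biogenesis 23 of 93 tested members were higher and 11 lower, in initiation 20 and 5 of 44, in elongation 14 and 2 of 23, and in release 2 and 1 of 3. Median log2 fold changes were 0.13, 0.28, 0.38 and 0.48 in turn. Of all transcripts 28.6% were higher and 29.0% lower, so that both shares of biogenesis, 24.7% higher and 11.8% lower, were below the background. All 6 libraries gave 15 and 5 of 92 for biogenesis, 17 and 4 of 43 for initiation, 12 and 2 of 23 for elongation and 1 and 1 of 3 for release. The backgrounds of that fit were 13.3% and 15.2%, so that the higher share of biogenesis, 16.3%, was above the background there. With the replicate block over all 6 these became 10 and 3 in biogenesis, 14 and 4 in initiation, 9 and 0 in elongation, and 0 and 0 in release. The block called 9.97% of all transcripts higher and 10.5% lower, and the higher share of biogenesis, 10.9%, was near that background. For comparison with the rest of protein synthesis, 31 of 42 organellar ribosomal proteins were higher and 1 lower (median log2 fold change 0.93), cytosolic ribosomal proteins had 10 higher and 28 lower of 98 (-0.10), and enzymes that charge transfer RNAs had 41 and 6 of 68 (0.54). These lists were chosen with earlier results of these data known, and their differences from the members were not tested.

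**Figure D2:**
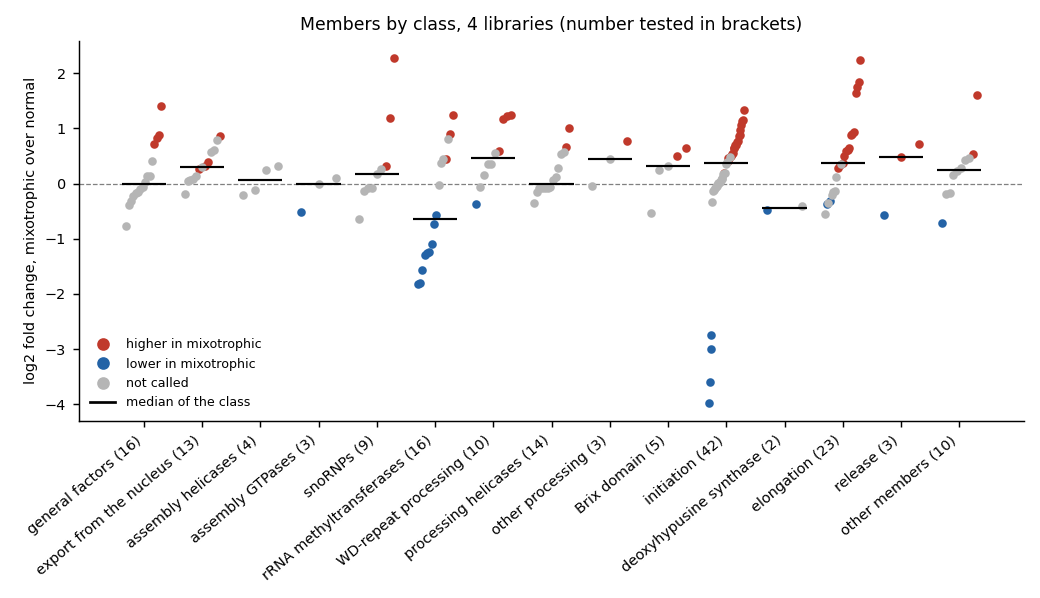
Log2 fold change, mixotrophic over normal, of each tested member over replicates 2 and 3, by functional class, with points ordered by value within a class, red for higher, blue for lower and grey for not called, and a bar at the median of the class. The methyltransferases are the biogenesis class with most lower calls, 9 of 16, and 4 initiation transcripts lie far below the rest, at -2.75 to -3.99.

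Among the biogenesis factors the largest rise was that of g15299, a member of the snoRNP bin without a description. It was at 108, 70.2 and 74.2 CPM in normal and 350.3, 349 and 365 CPM in mixotrophic libraries. The log2 fold change was 2.28 (SE 0.079, edgeR adjusted p = 3.34e-20), and over all 6 it was 2.07 (adjusted p = 0.00169). The other strong rise among snoRNPs was g13899, annotated as Gar1/Naf1, a subunit of the H/ACA particles that turn uridine of ribosomal RNA into pseudouridine. Normal libraries held 399, 395 and 413 CPM of g13899 and mixotrophic libraries 850, 930 and 939 CPM, with a log2 fold change of 1.19 (0.054, edgeR adjusted p = 2.3e-17, and 1.17 over all 6 with adjusted p = 0.00081). Both transcripts were higher in each mixotrophic library than in any normal one. NAP57 is the catalytic subunit of the same particles. Its 3 tested transcripts g18090, g18092 and g13956 had log2 fold changes of -0.07, -0.08 and -0.64 and none was called, with g18092 at 167 to 171 CPM in normal and 162 to 163 CPM in mixotrophic libraries. Of the UTP10 transcripts, for a scaffold of the early small-subunit precursor, 4 were tested and 1 was called, g4300 at 0.33 (adjusted p = 0.0202, and over all 6 adjusted p = 0.0378, or 0.113 with the replicate block). Over the 4 libraries 28.6% of all transcripts were higher and 29.0% lower.

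WD-repeat proteins, which hold the precursor particles together, included some of the clearest rises. g11209, annotated as UTP12, stood at 24.9, 22.1 and 18.7 CPM in normal and at 48.4, 48.8 and 47.5 CPM in mixotrophic libraries (log2 fold change 1.23, SE 0.16, adjusted p = 1.46e-07 by edgeR). Its neighbour in the assembly, g11210, had 1.25 (adjusted p = 6.53e-06). g2898, annotated as BOP1, a factor of large-subunit maturation, went from 27.6, 17.1 and 16.8 to 41.0, 40.6 and 36.5 CPM, a log2 fold change of 1.17 (0.18, edgeR adjusted p = 1.85e-06). All 6 libraries kept these calls, at 1.13 for g11209, 1.12 for g11210 and 0.93 for g2898 (adjusted p = 0.00372, 0.0108 and 0.0285). UTP21 g2496 was higher by 0.60 (adjusted p = 8.13e-06, and over all 6 adjusted p = 0.0232, or 0.0527 with the replicate block), but the summed counts of its assembly component, which also holds transcripts of another bin, had -0.02. In the opposite direction, g7202, annotated as the nucleolar protein TOZ with a UTP13 domain, fell by 0.37 on the log2 scale (0.075, edgeR adjusted p = 8.86e-05). It was at 156 CPM in normal replicate 1, within the 149 to 161 CPM of the mixotrophic libraries, and was not called over all 6 (-0.27, adjusted p = 0.191).

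Assembly factors that were higher included NIP7 g14763, a factor of the large subunit, at 8.84, 11.3 and 9.20 CPM in normal and 28.7, 28.1 and 26.7 CPM in mixotrophic libraries. Its log2 fold change was 1.41 (adjusted p = 2.8e-06, and 1.51 over all 6, adjusted p = 0.00245). The groups were well apart for this low transcript. For TSR1, a GTPase-like factor of the small subunit, g1058 and g1060 rose by 0.89 (0.14, edgeR adjusted p = 2.07e-06) and 0.82 (adjusted p = 8.03e-06), and they are 2 transcripts of one assembly component. The related GTPase BMS1 was lower in 1 of 3 transcripts, where 29.0% of all transcripts were lower. g3200 fell by 0.51 (0.087, edgeR adjusted p = 9.55e-06), from 124, 141 and 163 CPM to 114, 110.0 and 107 CPM, while g2099 and g16635 were at -0.01 and 0.10 and were not called. For g3200 the value over all 6 was -0.37 (adjusted p = 0.0821). NIP7, g2496, g11210, g1060, g2099 and g16635 were chosen for naming after their values were seen, as were the NAP57 and UTP10 transcripts.

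Nuclear export factors were dominated in counts by g15692, annotated with the GCN subfamily of ABC ATPases. Counts of g15692 corresponded to 9572, 9202 and 8792 CPM in normal and 11310, 11770 and 12380 CPM in mixotrophic libraries. The log2 fold change of 0.40 (0.043, edgeR adjusted p = 2.78e-09) was 0.36 over all 6 (adjusted p = 0.00686, and 0.0551 with the replicate block). Without this transcript the biogenesis members took 0.482% to 0.633% of the counts in normal and 0.652% to 0.663% in mixotrophic libraries. Its relative g2472, with the same best match in *Arabidopsis*, rose from 320.0, 240 and 214 to 421, 418 and 413 CPM (log2 fold change 0.86, SE 0.067, edgeR adjusted p = 4.75e-12, and 0.69 over all 6, adjusted p = 0.0264).

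The nucleolar GTPases rested on which normal libraries were taken. g10079, with the domain of the nucleolar GTPase NGP1, was at 251, 151 and 170 CPM in normal and 237, 271 and 265 CPM in mixotrophic libraries. It rose by 0.71 over the 4 libraries (0.074, edgeR adjusted p = 1.91e-09), but normal replicate 1 lay among the mixotrophic values, and all 6 gave 0.43 (adjusted p = 0.172). g5748, annotated as nucleolar GTP-binding protein 1, had 692, 420 and 440 CPM in normal and 485, 528 and 518 CPM in mixotrophic libraries. Its log2 fold change of 0.26 over the 4 (0.057, adjusted p = 0.000285, edgeR) turned to -0.02 over all 6 (adjusted p = 0.968), since normal replicate 1 was the highest library. SBDS g326, which takes part in the last steps of large-subunit maturation, was at 31.3 to 42.8 CPM in normal and 34.0 to 44.3 CPM in mixotrophic libraries (0.05, adjusted p = 0.797). The 6 transcripts of midasin, a giant ATPase that strips factors from the pre-60S particle, had log2 fold changes of -0.38 to 0.14 and none was called. Of the 14 tested processing helicases 2 (14.3%) were called, g3187 at 1.01 (adjusted p = 0.000864) and g10761 at 0.66 (adjusted p = 0.000991), and neither was called over all 6. Of all transcripts 28.6% were higher and 29.0% lower over the 4 libraries, and 13.3% and 15.2% over all 6. SBDS, midasin and the helicases were chosen after their values were seen.

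Among the methyltransferases of ribosomal RNA lower calls prevailed, with 9 lower (56.3%) and 3 higher (18.8%) of 16 tested and a median log2 fold change of -0.65, against 29.0% and 28.6% of all transcripts. Outside this class 20 biogenesis members (26.0%) were higher and 2 (2.60%) lower of 77. The share of higher calls was near that of all transcripts. This class was set aside after its values were seen, so the low share of lower calls outside it follows in part from that choice. Over all 6 the methyltransferases had 5 lower and 1 higher of 15 (3 and 1 with the replicate block), and their median was -0.12. The largest falls were those of g17484 and g17485. Together with g17487 they match the C-terminal part of Spb1, a methyltransferase of the large-subunit precursor, and share an assembly component. g17484 was at 148, 63.5 and 78.2 CPM in normal and 12.1, 20.2 and 21.6 CPM in mixotrophic libraries, a log2 fold change of -1.79 (0.15, edgeR adjusted p = 1.29e-11). g17485 and g17487 had -1.82 and -1.25 (adjusted p = 1.61e-07 and 6.35e-06). All were lower over all 6 too, at -2.43, -2.27 and -1.75 (adjusted p = 0.00892, 0.00529 and 0.0166), and the component as a whole had -1.57 over the 4 libraries. The remaining tested transcript of this kind, g17489, was not called (0.37). The transcript g16108, annotated as an FtsJ-like methyltransferase with the same best match in *Arabidopsis*, was not lower, at 18.0 to 26.5 CPM in normal and 23.6 to 33.0 CPM in mixotrophic libraries (0.45, adjusted p = 0.0534).

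Each of the 5 radical SAM methyltransferases, related to the bacterial enzyme RlmN that methylates an adenine in large-subunit ribosomal RNA, was lower over the 4 libraries. Of all transcripts 29.0% were lower there. g13419 had 17.7, 18.8 and 24.0 CPM in normal and 14.3, 10.6 and 9.83 CPM in mixotrophic libraries (log2 fold change -1.10, SE 0.23, adjusted p = 0.000204 by edgeR). g13418 of the same component was at -1.57 (adjusted p = 0.000224), g7153 and g7152 of another at -1.24 (adjusted p = 0.00041) and -0.73 (adjusted p = 0.00484), and g7154 at -0.56 (adjusted p = 0.00123). These are low transcripts, and over all 6 g13418 and g13419 were called (adjusted p = 0.0436 and 0.0438, and 0.0797 and 0.0952 with the replicate block). g7154 was at 18.0 CPM in normal replicate 1, below every mixotrophic library at 32.0 to 39.1 CPM, and its value over all 6 was -0.12 (adjusted p = 0.878). The 3 higher methyltransferases were g17915, with a chloroplast annotation (1.24, adjusted p = 2.83e-05), g13591 (0.90, adjusted p = 5.52e-05) and g5873 (0.45, adjusted p = 0.0394, or 0.0743 with the replicate block over the 4). g17915 was called over all 6 as well (1.06, adjusted p = 0.017). The higher methyltransferases, g7152, g7154, g16108 and g17489 were chosen after their values were seen.

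**Figure D3:**
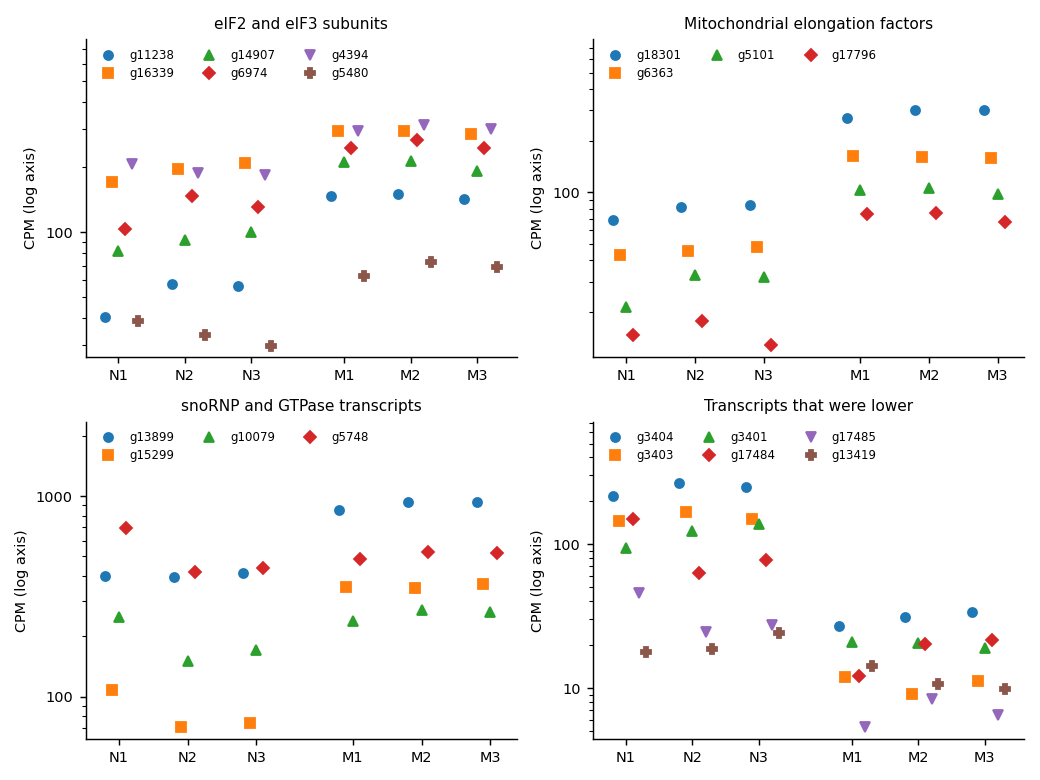
Level of selected members in each library, in CPM on a log axis, for normal (N) and mixotrophic (M) replicates 1 to 3, with 1 symbol per transcript. For the plotted mitochondrial elongation factors and eIF2 and eIF3 subunits every mixotrophic point lies above every normal point of the same transcript, whereas for g10079 and g5748 normal replicate 1 reaches or passes the mixotrophic level.

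In initiation, 3 of the 4 eIF2 transcripts and 8 of the 10 eIF3 transcripts were higher over the 4 libraries, against 28.6% of all transcripts. eIF2 carries the initiator transfer RNA to the small subunit, and its alpha subunit g11238 is the part whose phosphorylation slows initiation in other eukaryotes. g11238 was at 40.6, 57.6 and 56.2 CPM in normal and 147, 149 and 142 CPM in mixotrophic libraries. The log2 fold change was 1.34 (0.098, edgeR adjusted p = 1.28e-12), and over all 6 it was 1.51 (adjusted p = 0.00248). The gamma subunit g16339, which binds GTP, went from 170.0, 195 and 209 to 292, 294 and 285 CPM (0.50, adjusted p = 4.57e-07). The beta subunit g16438 had 0.65 (adjusted p = 0.00195). Over all 6 these 2 were at 0.60 and 0.75 (adjusted p = 0.0119 and 0.0367). The transcript not called was g17148, a further alpha transcript that was low in replicate 1 (0.06, adjusted p = 0.925). The alpha subunit g11238 had the largest fold change of the 4, although the difference was not tested.

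eIF3 is the large scaffold that holds the small subunit ready for the messenger RNA. The same 8 transcripts were called over all 6, and 6 of them with the replicate block, which lost g4395 and g16209 (adjusted p = 0.0555 and 0.0828). Of all transcripts these fits called 13.3% and 9.97% higher. The subunit h transcript g14907 was at 81.5, 92.3 and 99.5 CPM in normal and 211, 213 and 192 CPM in mixotrophic libraries (log2 fold change 1.05, SE 0.087, edgeR adjusted p = 1.47e-11, and 1.17 over all 6, adjusted p = 0.00219). For subunit d, g6974 rose from 103, 147 and 131 to 245, 265 and 244 CPM, a log2 fold change of 0.86 (0.079, edgeR adjusted p = 1.6e-10), and g5480 rose from 38.7, 33.4 and 29.9 to 62.8, 72.4 and 68.8 CPM, a log2 fold change of 1.14 (adjusted p = 1.57e-08). Subunit c g4394 had 0.71 (0.07, adjusted p = 6.48e-10) and its partner in the same component g4395 had 0.54 (adjusted p = 1.26e-07). Subunits b g7006, g g6291 and j g16209 followed at 0.98, 0.65 and 0.46 (adjusted p = 1.41e-05, 1.67e-07 and 0.00647). For g7006 the summed counts of the component had -0.55, since a transcript without any annotation in it was lower. The subunits not called were g5479, a further subunit d transcript that was low in replicate 1 (0.39), and the scaffold subunit a, g9616, at 262, 405 and 429 CPM in normal and 410, 413 and 441 CPM in mixotrophic libraries. g9616 had a log2 fold change of 0.01 (adjusted p = 0.911), and 0.21 over all 6 (adjusted p = 0.496), while the summed counts of its component were lower over the 4 (-0.16, adjusted p = 0.0174). The eIF3 transcripts other than g4394, g5480, g6974, g9616 and g14907, and eIF2 beta and gamma, were chosen after their values were seen.

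Among the factors of eIF4F, the complex that binds the cap of the messenger RNA, 3 of 5 tested transcripts were higher, by 0.56 or less. Of all transcripts 28.6% were higher. eIF4A g8125, the helicase that unwinds the leader, was at 802, 1003 and 921 CPM in normal and 1128, 1104 and 1134 CPM in mixotrophic libraries, and rose by 0.20 (0.052, edgeR adjusted p = 0.00168, and 0.30 over all 6, adjusted p = 0.069). The scaffold eIFiso4G g9860 went from 649, 517 and 540.0 to 723, 760.0 and 723 CPM (0.47, adjusted p = 3e-08, and 0.37 over all 6, adjusted p = 0.0525). eIF4E g2560, the cap-binding protein, was higher by 0.56 (adjusted p = 1.18e-07, and 0.65 over all 6, adjusted p = 0.0196). The eIF4G transcripts g7732 and g7736 were at 0.03 and -0.02 and were not called, with every library of g7732 between 225 and 252 CPM. Of the 4 tested transcripts of eIF2B, which reloads eIF2 with GTP, 1 was higher, g13272 (0.41, adjusted p = 0.00227, and 0.37 over all 6, adjusted p = 0.0899). None of the 3 tested organellar IF-2 transcripts was called, at -0.06 to 0.35. Deoxyhypusine synthase, which modifies eIF5A, was lower in g12012 (-0.48, adjusted p = 0.0481), at 18.2, 20.5 and 23.3 CPM in normal and 16.2, 15.5 and 16.6 CPM in mixotrophic libraries. That call was lost over all 6 (adjusted p = 0.138) and with the block over the 4 libraries (adjusted p = 0.0889). The eIF4F factors other than g8125 and g9860, eIF2B and IF-2 were chosen after their values were seen.

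The deepest falls of any member were in 4 initiation-bin transcripts of one assembly component, g3401, g3403, g3404 and g3405, for which no description was present. g3403 was at 145, 168 and 150 CPM in normal and 11.9, 9.11 and 11.2 CPM in mixotrophic libraries, a log2 fold change of -3.99 (0.14, edgeR adjusted p = 3.53e-20). g3404 went from 217, 266 and 249 to 26.8, 31.3 and 33.7 CPM, a log2 fold change of -3.01 (0.094, edgeR adjusted p = 3.28e-21). g3405 and g3401 were at -3.59 and -2.75 (adjusted p = 3e-15 and 1.88e-17). The values over all 6 were -3.84, -2.99, -3.36 and -2.55 for g3403, g3404, g3405 and g3401 (adjusted p = 0.000371, 0.000444, 0.000559 and 0.000809). Since they share a component, they are not independent of each other, and the component as a whole had -3.24. Without these 4, initiation had 20 higher (50.0%) and 1 lower (2.5%) of 40 tested, with backgrounds of 28.6% and 29.0%. The 4 were set aside after their values were seen, so the smaller number of lower calls follows from that choice. Another initiation member without a description, g12098, rose from 151, 140 and 131 to 242, 256 and 250.0 CPM (0.88, adjusted p = 3.07e-11, and 0.82 over all 6, adjusted p = 0.00345).

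Elongation factors of the mitochondrion had the largest rises among the translation factors tested over the 4 libraries. All 4 transcripts annotated to this organelle were higher in both fits and with the replicate block, and every mixotrophic library was above every normal one for each. Of all transcripts 28.6% were higher over the 4 libraries and 13.3% over all 6. Every mixotrophic library was above every normal one for 24.4%. EF-Tu g18301, which delivers aminoacyl-transfer RNA, was at 68.3, 81.4 and 84.4 CPM in normal and 272, 303 and 302 CPM in mixotrophic libraries (log2 fold change 1.84, SE 0.079, edgeR adjusted p = 4.52e-18, and 1.91 over all 6, adjusted p = 0.000748). Its exchange factor EF-Ts g5101 went from 21.3, 32.6 and 31.9 to 103, 106 and 97.2 CPM (1.64, adjusted p = 1.89e-12, and 1.84 over all 6, adjusted p = 0.00223). EF-G moves the ribosome along the messenger RNA, and g6363 of this family rose from 43.1, 45.1 and 48.0 to 162, 161 and 159 CPM (1.76, adjusted p = 3.19e-15). The other EF-G transcript, g17796, went from 14.7, 17.5 and 12.8 to 74.3, 75.8 and 66.6 CPM (2.23, adjusted p = 1.66e-12). Over all 6 libraries g6363 and g17796 were at 1.83 and 2.27 (adjusted p = 0.000531 and 0.000805). The median of the 4 was 1.80.

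Fold changes of chloroplast and cytosolic elongation factors had lower values. EF-Ts of the chloroplast, g9471, was at 178 to 215 CPM in normal and 204 to 237 CPM in mixotrophic libraries (0.12, adjusted p = 0.139). g8766, an elongation factor family protein with a chloroplast annotation, rose from 603, 631 and 610.0 to 952, 977 and 945 CPM (0.61, adjusted p = 5.28e-11, and 0.64 over all 6, adjusted p = 0.00274). g12648 and g12647, annotated with the GTP-binding protein TypA, had 0.88 and 0.65 (adjusted p = 2.98e-07 and 4.14e-05). Over all 6 the adjusted p of g12647 was 0.0355, or 0.0996 with the replicate block. In the cytosol eEF1A, which does the work of EF-Tu, was lower in both of its highly counted transcripts. g13324 was at 4487, 4688 and 4449 CPM in normal and 3325, 3696 and 3792 CPM in mixotrophic libraries, a log2 fold change of -0.31 (0.044, edgeR adjusted p = 6.78e-07). g13325 of the same component was at 4228, 4514 and 4281 CPM against 3172, 3462 and 3488 CPM, a log2 fold change of -0.36 (adjusted p = 5.27e-08). Both remained lower over all 6, at -0.33 and -0.36 (adjusted p = 0.0173 and 0.0104), and were not called with the replicate block over all 6 (adjusted p = 0.0778 and 0.0602).

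Of the elongation members without a description, all 4 were higher over the 4 libraries and over all 6, and 3 with the replicate block over all 6. These fits called 28.6%, 13.3% and 9.97% of all transcripts higher. g15103 carried many counts, at 2372, 2697 and 2571 CPM in normal and 3271, 3438 and 3505 CPM in mixotrophic libraries (0.38, adjusted p = 3.06e-08). g1164 and g1166 of one component were at 0.90 and 0.93 (adjusted p = 1.08e-09 and 3e-09), and g9025 was at 0.29 (adjusted p = 4.38e-05, and over all 6 adjusted p = 0.0365, or 0.122 with the replicate block). g7110, of the EF1A and IF2gamma family, went the other way when all libraries were used. It had 95.1, 38.4 and 43.0 CPM in normal and 41.7, 51.7 and 52.8 CPM in mixotrophic libraries, with a log2 fold change of 0.33 over the 4 (adjusted p = 0.0338, and 0.0575 with the replicate block) and -0.28 over all 6 (adjusted p = 0.642). g6555 and g10416, which are no translation elongation factors by their description, were at 0.59 and 0.50 (adjusted p = 0.000623 and 1.61e-07). Over all 6 g6555 was not called (adjusted p = 0.0832), and g10416 had an adjusted p of 0.0356, or 0.111 with the replicate block. The chloroplast and TypA transcripts and g1164, g1166, g9025, g6555 and g10416 were chosen after their values were seen.

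**Figure D4:**
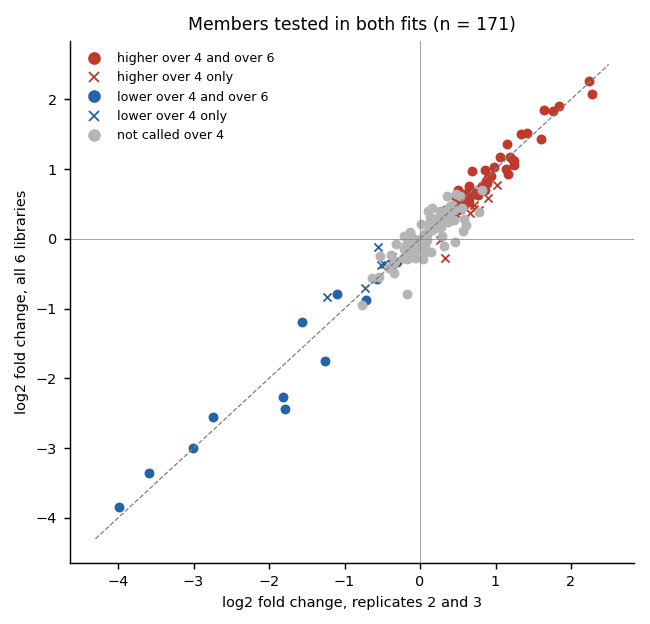
Log2 fold change of the 171 members tested in both fits, over replicates 2 and 3 (horizontal axis) and over all 6 libraries (vertical axis), with circles for members called in both, crosses for those called over the 4 only, grey for not called over the 4, and a dashed line of equal values. The 59 members called in both lie on the same side of 0, and the crosses lie mostly between -1 and 1, with 2 of the red crosses below 0 on the vertical axis (g5748 and g7110).

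Release factors were few, with 3 of 6 tested and the other 3 without a count. eRF1 g7016, which reads all stop codons in the cytosol, rose from 262, 243 and 226 to 320.1, 328 and 335 CPM (log2 fold change 0.48, SE 0.066, edgeR adjusted p = 3.13e-07, and 0.43 over all 6, adjusted p = 0.023). The bacterial-type release factors went in opposite directions. g5718, annotated from a chloroplast development mutant of *Arabidopsis*, fell from 97.6, 88.1 and 103 to 62.6, 65.0 and 66.6 CPM, a log2 fold change of -0.56 (0.11, edgeR adjusted p = 3.69e-05, and -0.57 over all 6, adjusted p = 0.0126). g1592, annotated as peptide chain release factor 1, was at 24.9, 14.2 and 16.8 CPM in normal and 27.0, 26.8 and 25.0 CPM in mixotrophic libraries (0.71, adjusted p = 0.00327, and 0.49 over all 6, adjusted p = 0.166). With the replicate block over all 6, g7016 and g5718 had adjusted p-values of 0.0935 and 0.0544.

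Among the 10 other members, g14893, annotated as ribosomal protein S9 in a bin of unassigned ribosomal proteins, rose from 27.9, 18.8 and 18.7 to 61.3, 59.6 and 56.2 CPM (1.60, SE 0.15, edgeR adjusted p = 4.2e-10, and 1.43 over all 6, adjusted p = 0.00454). g12079, without a description, was at 221, 154 and 188 CPM in normal and 251, 259 and 246 CPM in mixotrophic libraries (0.53, adjusted p = 1.54e-06, and 0.43 over all 6, adjusted p = 0.0816). g15693, also without a description, fell from 167, 115 and 112 to 74.5, 77.1 and 63.2 CPM (-0.71, adjusted p = 1.2e-06, and -0.88 over all 6, adjusted p = 0.0212). g4320, which holds the domain of the messenger RNA surveillance factor UPF2, was at 56.2 to 76.3 CPM in normal and 66.6 to 78.4 CPM in mixotrophic libraries (0.16, adjusted p = 0.249).

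The 10 members low in replicate 1 were translation factors, 6 of elongation and 4 of initiation, and none was of ribosome biogenesis. They were transcripts of eEF1A (g13217, g16460 and g16461), the gamma chain of eEF1B (g12254 and g12255), chloroplast EF-Tu (g9889), eIF1A (g16787 and g16788), eIF2 alpha (g17148) and eIF3 subunit d (g5479). g16461 was at 0, 150 and 113 CPM in normal and 0.216, 97.3 and 143 CPM in mixotrophic libraries. None of the 10 was called between the conditions over the 4 libraries, nor were the 9 tested over all 6. Together they took 0.000674% and 0.00072% of the counts of replicate 1 in normal and mixotrophic cultures, against 0.0255% to 0.0379% in the other libraries. Other transcripts of the same factors, chosen after their values were seen, were not low there: eEF1A g13324 and g13325, eIF1A g5674, eIF2 alpha g11238 and eIF3 d g5480. g5674 was at 103, 80.6 and 89.0 CPM in normal and 141, 153 and 136 CPM in mixotrophic libraries (0.75, adjusted p = 9.12e-08). A match to *Chlamydomonas* stood in the description of 6 of the 10, against 182 of all 190 described members. The members low in replicate 1 made up 4.85% of the members, as against 4.87% of all transcripts.

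**Figure D5:**
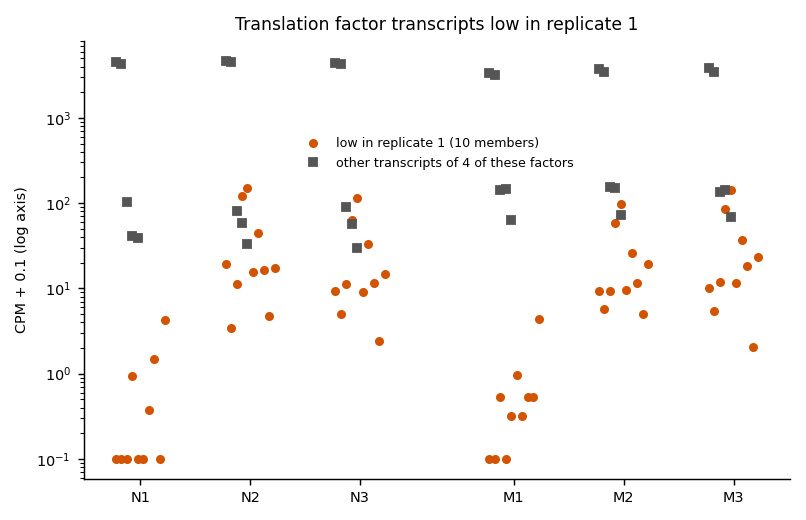
Level of the 10 members low in replicate 1 (orange circles) and of 5 other transcripts of eEF1A, eIF1A, eIF2 alpha and eIF3 d (grey squares) in each library, in CPM with 0.1 added, on a log axis, for normal (N) and mixotrophic (M) replicates 1 to 3. The orange points lie at or below 4.32 CPM in replicate 1 of both conditions and at 1.97 to 150 CPM elsewhere, while the grey points show no such drop.

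Some factors had members without a count in any library. All 4 transcripts of MPP10, a protein of the small-subunit processome, were without a count (g18065, g18067, g18069 and g18071), as were 4 of the 8 Spb1 transcripts, eIF6 g10113, eIF5A g2568, the 3 EF-P transcripts and PELOTA g10081. Transcripts that share an assembly component with another made up 52.4% of the members, so their reads may be divided among close relatives. Whether this bears on the transcripts without a count was not tested.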

How the data were processed

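RNA of 6 cultures was sequenced. According to the methods of the paper, Trinity assembled the reads of every sample jointly, AUGUSTUS predicted coding transcripts in the assembly, and Subread with featureCounts at default settings aligned and counted reads on them. The labels name BWA and DESeq2, with no version. The table deposited by the authors holds raw counts per transcript. Tables of the authors' own DESeq2 comparison and enrichment, with fold changes and p-values, were not used here. Sequences and lengths were not analysed here.

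All transcripts were tested together in R 4.3.3 by the quasi-likelihood F test of edgeR 4.0.16, two-sided and with no covariate, after TMM scaling and filterByExpr (minimum count 10), with non-robust dispersions and Benjamini-Hochberg adjustment over every transcript tested. DESeq2 1.42.0 was an alternative. Standard errors were derived from the F statistic. "Low in replicate 1" means a CPM that, after adding 0.5, was at most 0.5 of that in any of the remaining 4 libraries, in replicate 1 of both conditions, provided that those 4 all reached 1 CPM. Components are Trinity components.

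Named transcripts are the called members with the smallest adjusted p in each direction (8 in biogenesis, 6 in initiation, 4 in elongation, 3 in release, 2 among other members), the 3 with the highest level in each group, members of one component called in opposite directions (there were 0), and those whose sign differed over all 6. Others were chosen after their values were seen, as were the families within groups. The members and lists were chosen with earlier results of these data known.

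Libraries with the same replicate number deviated together from their condition means (correlations of 0.703, 0.625 and 0.544 for numbers 1, 2 and 3). Numbers 2 and 3 were not separated by this, since normal 2 with mixotrophic 3 had 0.683 and normal 3 with mixotrophic 2 had 0.514. With the transcripts low in replicate 1 set aside the matched numbers had 0.117, 0.0457 and 0.0336 and normal 2 with mixotrophic 3 had 0.106. Which libraries shared a pre-culture is not given in the sources used here. Values with the replicate as a block are printed where they change the call of a transcript named with its value.

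On simulated data over the 4 libraries, 50.7%, 86.6% and 100% of transcripts changed by a log2 fold change of 0.5, 1 and 2 were called, and 4.24% of calls were false. Over 6 libraries the shares were 0%, 1.49% and 57.6%, and 11.4%. Only 67, 67 and 66 transcripts were changed by these sizes, of 12222 tested over the 4 libraries and 11996 over 6. This is a far smaller share than was called in the data. The simulated counts also had no shift of replicate 1, so these shares do not carry over to the data. Other scalings, tools, filters and sets of libraries, the replicate block, and counts summed per component were tried as alternatives. DESeq2, component sums and the omission of transcripts low in replicate 1, each over all 6 libraries, were added after the data were seen.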

Additional observations from a re-analysis of the deposited data

How the results depend on the processing

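Over the 4 libraries, RLE or upper quartile scaling, DESeq2, the other filters, the replicate block over the 4 and leaving out the transcripts low in replicate 1 kept the counts for all transcripts, members, biogenesis, initiation, elongation and release within 1.5 times of those reported, except that DESeq2 called 1 release factor higher. In smaller lists DESeq2 called 6 cytosolic ribosomal proteins higher in place of 10 and 3 transfer RNA charging enzymes lower in place of 6, and lost the only higher call in UTP10 and in eIF2B and the only lower call in deoxyhypusine synthase and in initiation without the component of g3401, the lower calls being lost with the block over the 4 as well. The higher call of g7110 was lost with DESeq2 too (adjusted p = 0.257 by DESeq2). In place of 3 eIF2 and 8 eIF3 transcripts DESeq2 called 2 and 7 higher, and it called 4 radical SAM methyltransferases lower in place of 5. Upper quartile scaling shifted the median of all transcripts by 0.06.

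Over all 6 libraries 1633 transcripts were higher and 1874 lower, with 13 lower members, 15 higher and 5 lower in biogenesis, and 1 higher in release. DESeq2 over all 6, chosen after the data were seen, gave 1819 and 2117 transcripts, 13 lower members, 15 and 5 in biogenesis and 1 higher in release. Without the transcripts low in replicate 1 all 6 gave 1888 and 2110, 15 higher in biogenesis and 1 higher in release. The replicate block over all 6 gave 1228 and 1288 transcripts, 34 and 8 members, 10 and 3 in biogenesis, 9 and 0 in elongation, and 0 and 0 in release. Sums per component gave 2365 and 2373 components over the 4, and 1129 and 1316 over all 6. Of the components that hold a member, 40 and 11 were called over all 6. These included 14 and 5 for biogenesis, 2 lower for initiation, 9 higher for elongation and 1 higher for release. Such sums take in every transcript of a component, members or not, so they do not count members. With an absolute log2 fold change of 1 or more there were 1449 and 1486 transcripts, 17 and 11 members, 8 and 7 in biogenesis, 4 higher in initiation, 4 and 0 in elongation and 0 and 0 in release.

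Leaving out 1 replicate, from the 4 or from the 6, gave 641 to 3476 transcripts higher and 668 to 3534 lower, 22 to 64 members higher and 6 to 23 lower, 6 to 26 and 2 to 14 in biogenesis, 6 to 21 and 4 to 8 in initiation, 8 to 14 and 0 to 5 in elongation, and 0 to 2 and 0 to 1 in release. Within the 4 libraries these ranges for members were 57 to 62 and 19 to 23, where the lone library of a condition is assumed to vary like the others.

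Over all 6, leaving out any library but normal replicate 1 gave 22 to 33 members higher and 6 to 11 lower. Within the 4, the lower calls in elongation became 5 when normal replicate 3 was left out and 4 when mixotrophic replicate 3 was, and those in initiation 8 when normal replicate 2 was.

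Of the 46 named transcripts 35 kept their direction and their side of the threshold over all 6, 28 with the replicate block over all 6, and 44 with the block over the 4. g5748 turned to -0.0201 over all 6, -0.0259 with DESeq2, -0.0202 without the low transcripts and -0.0708 summed per component, and leaving out 1 replicate from the 4 or the 6 gave -0.15 to 0.30. g7110 turned to -0.28 over all 6, -0.16 with the block, -0.28 with DESeq2, -0.27 without the low transcripts and -0.32 summed per component, and leaving out 1 replicate gave -0.51 to 0.43. g9616, not called, had -0.16 summed per component over the 4, past the threshold as lower (adjusted p = 0.0174), and -0.0525 to 0.34 on leaving out 1 replicate. The cause of these differences was not tested, apart from the libraries left out.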
